A study of Homo sapiens with 6 samples.

Results

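The 293 genes described here are the long noncoding RNA genes with measurable expression in T24 cells, a human bladder cancer line. They were taken from a table of 58288 genes, of which 13929 carry one of the annotation types lincRNA, antisense, sense intronic, sense overlapping or bidirectional promoter lncRNA. A gene entered when its mean over all 6 libraries was at least 3 CPM (counts scaled to a common library total), which left out 13628. A further 8 genes above that level, ZFAS1 and 7 host genes of small nucleolar RNAs named SNHG, were left out by name. The lowest included genes were AC015871.3 at 3.01 CPM and AC006547.1 at 3.006 CPM, and the nearest excluded ones were AC012467.2 at 2.972 and BOLA3-AS1 at 2.97. The members were thus chosen by their mean level over all libraries, which is given as a description only. A total of 97 of the 293 were under 3 CPM in at least 1 condition and passed through the others, so counts over the list are read as descriptions only.

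T24 cells were transfected with a control siRNA (NC) or with 1 of 2 siRNAs that the labels number 1 and 2, and 2 libraries labelled as biological replicates were made for each condition. They are called si-circ235-1 and si-circ235-2 here, the paper being the only source for these names. Both were designed against circ235, a circular RNA of the CCNY gene, at its looping site. The libraries came from RNA captured by its poly(A) tail and did not keep the strand. Circular RNAs lack such a tail, so circ235 itself was not measured and its knockdown could not be checked here. The libraries held 17152017 and 15855386 counts in NC, 15588108 and 19912893 in si-circ235-1, and 15373992 and 17562690 in si-circ235-2. At these depths 3 CPM stands for 46 to 60 counts. Only T24 cells were sequenced, and fewer cells with a transcript and less RNA per cell cannot be told apart in such bulk libraries.

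The epithelial markers were divided. KRT7 lay between 619 and 1260 CPM, KRT8 between 1110 and 2160 CPM and KRT18 between 939 and 2310 CPM over the 6 libraries, while EPCAM lay between 1.28 and 2.93 CPM and KRT19 had 1 count in all. The urothelial plaque gene UPK3A had 0 counts in every library, and UPK1A, UPK1B, UPK2 and GATA3 did not exceed 1.12 CPM. PPARG, of the same list, measured 23.2 and 22.6 CPM in NC, 39.5 and 45.9 in si-circ235-1, and 49.2 and 51.1 in si-circ235-2, with NC lowest. VIM, a mesenchymal gene, measured 846 and 665 CPM in NC, 1170 and 1500 in si-circ235-1, and 654 and 499 in si-circ235-2, so that si-circ235-1 was highest. CD44, a gene of basal cells, measured 732 and 778 CPM in NC, 595 and 643 in si-circ235-1, and 1160 and 994 in si-circ235-2, which was highest, whereas the basal keratins KRT5 and KRT14 had 0 counts in 5 libraries and 4 and 2 counts in the other. The leukocyte genes PTPRC and CD3E and the fibroblast gene LUM had 0 counts, CD68, DCN and PDGFRA had at most 3 counts, COL1A1 had 8 to 21 counts, and the highest count of the endothelial gene CDH5 was 41.

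Long noncoding RNAs are transcripts without a recognised protein product. Some stay in the nucleus and scaffold nuclear bodies, as NEAT1 does for paraspeckles, while others reach the cytoplasm and bind proteins or microRNAs, as NORAD binds RNA-binding proteins. Many are transcribed from the opposite strand of a coding gene or away from its promoter, and many are degraded soon after synthesis by the nuclear exosome. In bladder cancer several have been studied as markers of growth and invasion, UCA1 being an early example.

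Of the 293 genes, 139 are annotated as lincRNA, 128 as antisense, 14 as sense intronic, 7 as sense overlapping and 5 as bidirectional promoter lncRNA. Their longest transcripts had a median of 2180 nt and 2 exons, against 3780 nt and 8 exons in the 10524 protein-coding genes at the same minimum. The median GC content was 47.4% against 48%. Only 83 exceeded 10 CPM and 5 exceeded 100 CPM, with a median of 6.18 CPM. Several well known RNAs fell outside. UCA1 had a mean of 0.0742 CPM, and HOTAIR and MEG3 had 0 counts. DANCR, H19 and OIP5-AS1 are typed as processed transcripts in the annotation used and were not members.

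Per kilobase of merged exon, AL161431.1, a lincRNA gene on chromosome 13, had the highest mean level, 102 CPM per kb. It was followed by DLGAP1-AS2 at 57.6, NORAD at 46.8 and FGD5-AS1 at 43.7 CPM per kb. MALAT1 and NEAT1, which are long, unspliced RNAs, reached 10.3 and 5.81 CPM per kb and ranked 25 and 69. These values divide by all annotated exon bases of a gene. Which of its transcripts the poly(A) libraries held was not measured, so ranks of genes with long and short transcripts are rough. The genes together took 0.343% and 0.373% of all counts in the NC libraries, 0.301% and 0.335% in si-circ235-1, and 0.485% and 0.491% in si-circ235-2. The si-circ235-2 libraries thus lay above the other 4. The 5 most abundant genes made up 42.7% and 40.8% of this share in si-circ235-2, against 25.7% to 30.1% in the other 4 libraries. These were AL161431.1, NORAD, FGD5-AS1, DLGAP1-AS2 and NEAT1.

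**Figure D1:**
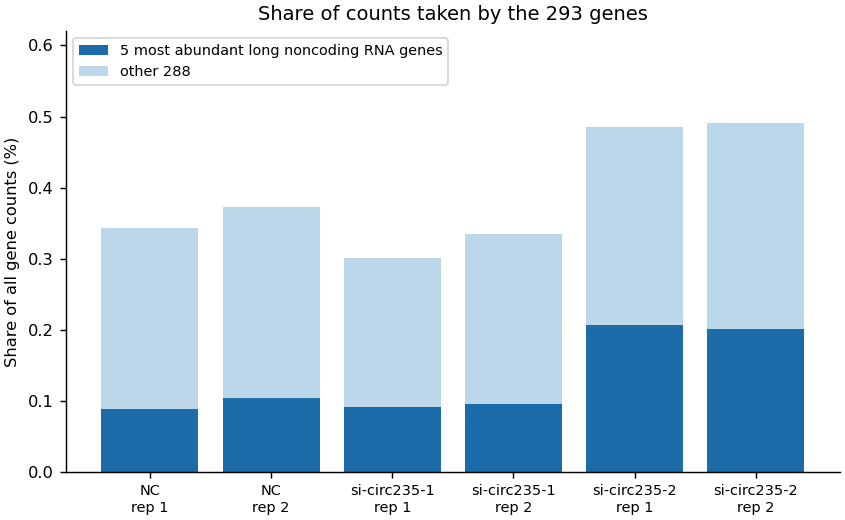
Share of all gene counts (y axis, %) taken by the 293 long noncoding RNA genes in each of the 6 libraries (x axis), split into the 5 most abundant genes (dark) and the other 288 (light). The si-circ235-2 libraries reach 0.485% and 0.491%, and their dark segments are the tallest.

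To ask how each siRNA moved these genes, edgeR's quasi-likelihood test was fitted over all 14415 genes that passed its count filter, among them all 293. A gene is called when its Benjamini-Hochberg adjusted p over these 14415 genes is below 0.05. Library sizes were scaled by TMM, which sets the bulk of genes near no change, and levels below are CPM on that scale. Under si-circ235-1, 3 of the 293 genes were called higher and 21 lower than in NC. Of all genes tested, 5.88% were called in this comparison, 2.24% higher and 3.64% lower, and the corresponding shares of the 293 were 1.02% and 7.17%. In 48 genes both si-circ235-1 libraries lay above both NC libraries and in 131 below, against 26.2% and 28.8% of all genes tested. The median log2 fold change was -0.26 over the 293 genes and -0.03 over all genes tested. Under si-circ235-2, 30 were called higher and 38 lower (10.2% and 13.0%, against 15.7% and 15.7% of all genes tested, 31.4% together). The median was -0.16, against 0 over all genes. The 2 libraries of each condition did not overlap in 87 genes that were higher and 133 that were lower than NC, against 36.4% and 35% of all genes tested. Without TMM scaling the calls became 45 higher and 15 lower with a median of 0.09, while of all genes tested 22% were then called higher and 8.98% lower, with a median of 0.25.

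Between the siRNAs, 61 genes were called higher and 46 lower in si-circ235-2 than in si-circ235-1. Libraries did not overlap in 127 higher and 94 lower genes, against 38.4% and 33.7% of all genes tested. All genes tested gave 21.1% higher and 18.6% lower, 39.7% together, and the 293 gave 20.8% and 15.7%. The median was 0.13, against 0.04 over all genes, and without TMM scaling the counts were 105 and 27, when 31.5% and 10.4% of all genes tested were called. Requiring 3 CPM in every condition dropped 97 of the 293 genes. The median of the rest was negative, and 25 of them were called higher, a count over fewer genes than the 61. Both comparisons with NC use the same 2 control libraries, so they are not independent of each other. Single libraries carried many calls. A fit without 1 library leaves its condition with 1, so that the spread in such fits comes from the other conditions. Without si-circ235-1 replicate 2, none of the 15037 genes then tested was called under si-circ235-1 by edgeR, so every call of that siRNA named below depends on it. Without NC replicate 1, 1 call lower and 0 higher were left among the 293 under si-circ235-1, and 2 lower and 4 higher under si-circ235-2. All genes tested fell in the same way, to 0.113% higher and 0.378% lower under si-circ235-1 and to 2.86% and 2.23% under si-circ235-2.

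**Figure D2:**
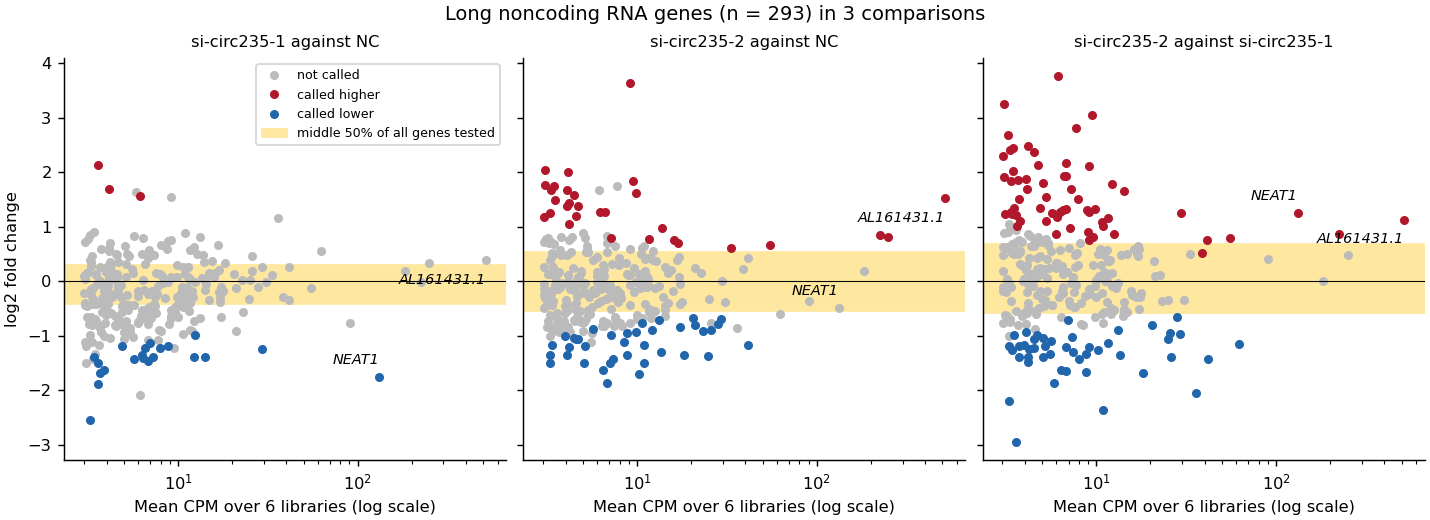
Log2 fold change (y axis) against mean CPM over the 6 libraries (x axis, log scale) for the 293 long noncoding RNA genes in 3 comparisons, with called genes in red (higher) or blue (lower) and the middle 50% of all genes tested as a yellow band. Calls under si-circ235-1 number 3 higher and 21 lower, those under si-circ235-2 number 30 and 38, and between the siRNAs 61 and 46.

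Transcript length moved with the response to si-circ235-2. The 98 genes whose longest transcript was at most 1660 nt had a median log2 fold change of -0.66 against NC, with 8 called higher and 24 lower. The 98 genes over 2880 nt had a median of 0.16, with 15 higher and 6 lower. Coding genes within the same bounds had medians of -0.83 and 0.25, with 0.804% called higher and 62% lower in the short class, where the members had 8.16% and 24.5%, and 26.9% higher and 8.27% lower in the long class, where they had 15.3% and 6.12%. Over the 293 genes Spearman's rho between length and fold change was 0.39, and over 10524 coding genes it was 0.53. For si-circ235-1 rho was -0.10 over the 293 genes and 0.02 over coding genes. These correlations are across genes, which are not independent replicates. When each library was first corrected for smooth trends in length and GC content, 34 genes were called higher and 33 lower under si-circ235-2, against 11.2% and 14.7% of all genes tested. Trend-corrected values are given below for some genes, chiefly those whose call they changed. The source of the length trend was not tested.

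**Figure D3:**
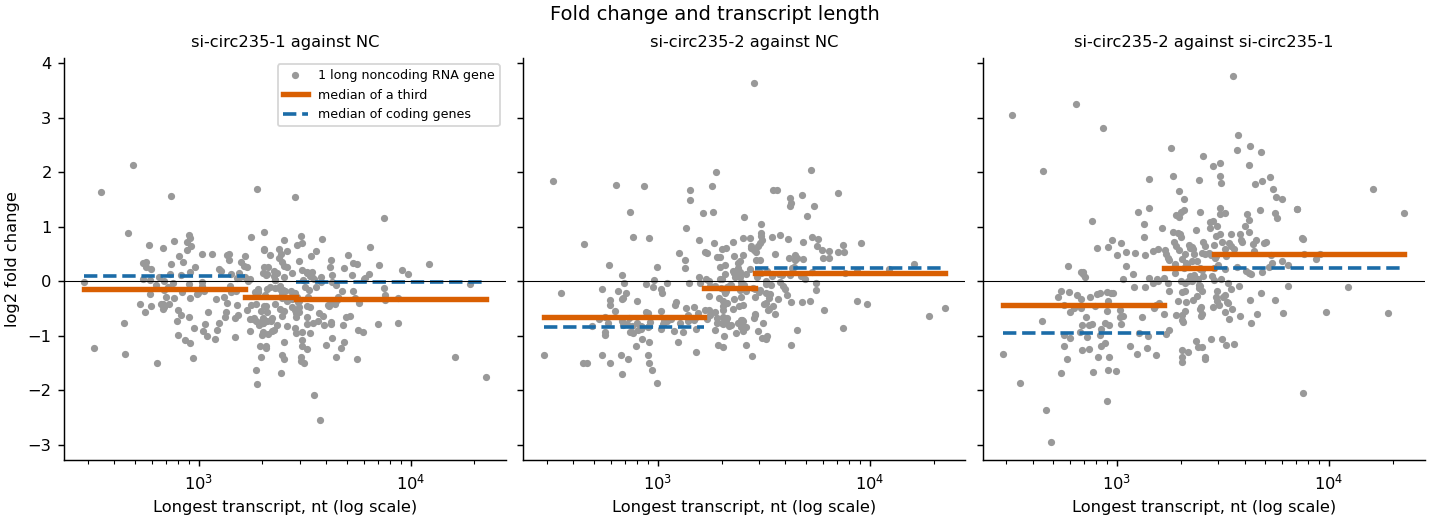
Log2 fold change (y axis) against the length of the longest transcript (x axis, nt, log scale) for the 293 long noncoding RNA genes in 3 comparisons. Orange bars are medians of 3 length classes bounded at 1660 and 2880 nt, and dashed blue bars are medians of coding genes in the shortest and longest class, which under si-circ235-2 stood at -0.83 and 0.25.

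The study proposed that circ235 binds miR-330-5p, so matches to its seed were looked up in the transcripts of the 293 genes. MicroRNAs recognise targets mainly through bases 2 to 8, in capitals below. The mature sequence is from RefSeq (GRCh38.p14), and the gene is on the minus strand, at chr19:45639049-45639070. The windows are 30 bases around the first match in the longest transcript of 4 genes described next, on GRCh38, with the match CCCAGAG in capitals. They show where the matches lie. The values below are per gene, and binding at these sites was not tested. In NEAT1 the first match is at base 12784 of 22743, so a transcript ending before it would hold none of these matches.
hsa-miR-330-5p: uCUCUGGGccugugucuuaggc
NEAT1: agagctgaggcaCCCAGAGgcagtgtccag
MALAT1: gagcccaggtttCCCAGAGtccttgggacg
TUG1: actgtgcagaagCCCAGAGtaaaagtgaag
CRNDE: tccagtccaaaaCCCAGAGctctcaactgc

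The match lies at chr11:65435581-65435587 (plus strand) in NEAT1, which has 5 matches, and at chr11:65497902-65497908 (plus strand) in MALAT1, which has 2. In TUG1, with 2 matches, it lies at chr22:30975256-30975262 (plus strand), and in CRNDE, also with 2, at chr16:54852171-54852177 (minus strand). CCCAGAG, searched on the transcript strand only, occurred in at least 1 annotated transcript of 107 of the 293 genes, or 36.5%, and in 55.5% of the coding genes, whose transcripts are longer. Under si-circ235-1, genes with a match had a median log2 fold change of -0.19, with 0 called higher and 13 lower, and the 186 without one had -0.27, with 3 higher and 8 lower. Under si-circ235-2 the medians were -0.03 with a match (13 higher, 9 lower) and -0.29 without (17 higher, 29 lower). As shares of the members with a match, 0% were called higher and 12.1% lower for si-circ235-1, and 12.1% and 8.41% for si-circ235-2. Coding genes with a match were called higher in 2.69% and lower in 5.23% under si-circ235-1, and those without in 2.91% and 3.06%, and under si-circ235-2 the shares were 22.6% and 17.3% with and 14.4% and 20.9% without. In coding genes the medians were -0.05 with and 0.05 without a match under si-circ235-1, with 0.08 and -0.08 for si-circ235-2. Transcripts with a match also tend to be longer, and the part of length in these differences was not tested. NORAD, AL161431.1 and FGD5-AS1 held no match in their longest transcripts. DLGAP1-AS2, another of the most abundant members, held 1 and was not called.

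NEAT1, the architectural RNA of paraspeckles, fell under si-circ235-1. It lies on the plus strand of chromosome 11 from 65422774 to 65445540, and its longest transcript measures 22743 nt. Its level was 206 and 182 CPM in NC, 59.3 and 56.3 in si-circ235-1, and 140 and 137 in si-circ235-2. The 3 conditions did not overlap, with NC highest and si-circ235-1 lowest. Against NC, si-circ235-1 gave a log2 fold change of -1.75 (standard error, SE, 0.18, adjusted p = 0.00586, edgeR), or 0.298 times the NC level. Under si-circ235-2 it was -0.49 (SE 0.17, adjusted p = 0.0519, edgeR), which did not pass the threshold in the main edgeR fit. The threshold was passed in DESeq2 (adjusted p = 0.0424), in edgeR with RLE factors (adjusted p = 0.0485) and in edgeR with the replicate number as a block (adjusted p = 0.0363). The value was -0.23 (adjusted p = 0.329, edgeR) without TMM scaling, was not called with any library left out, and was -1.29 (adjusted p = 0.00389, edgeR) after removal of the length and GC trend. NEAT1 was higher in si-circ235-2 than in si-circ235-1 by 1.26 (SE 0.18, adjusted p = 0.000794, edgeR), and by 0.55 (adjusted p = 0.0458, edgeR) with the trend removed. Without si-circ235-1 replicate 2 the value under si-circ235-1 was -1.71 (adjusted p = 0.13, edgeR). Its call held without each of the other 5 libraries in turn.

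MALAT1, the nuclear speckle RNA transcribed next to NEAT1 on the same strand, measured 105 and 121 CPM in NC, 64.6 and 68.4 in si-circ235-1, and 61.2 and 115 in si-circ235-2. Its si-circ235-1 libraries lay below both NC libraries, and its si-circ235-2 libraries spanned from the lowest to nearly the highest value. The log2 fold changes of -0.76 (SE 0.26, adjusted p = 0.102, edgeR) and -0.36 (SE 0.26, adjusted p = 0.321, edgeR) did not pass the threshold. With the length and GC trend removed both were -0.89 and were called (adjusted p = 0.00829 and 0.00516, edgeR). The value under si-circ235-2 was -0.09 without TMM scaling, 0.02 when si-circ235-2 replicate 1 was left out, and -0.89 when replicate 2 was.

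TUG1, a spliced RNA that binds chromatin regulators, measured 41.9 and 49.5 CPM in NC, 40.6 and 42.8 in si-circ235-1, and 63.8 and 80.9 in si-circ235-2, whose libraries were the highest. It rose by 0.66 in log2 units under si-circ235-2 (SE 0.20, adjusted p = 0.0269, edgeR). The change was 0.02 (adjusted p = 0.922, edgeR) with the trend removed, and the call was lost without NC replicate 1 (0.54) and without si-circ235-2 replicate 2 (0.48). LINC-PINT, here 1 of 2 annotated genes of that name, was not called in any comparison. Of the 4 nuclear scaffold RNAs among the members, 0 were called higher and 1 lower under si-circ235-1 (5.88% of all genes tested called), and 1 higher and 0 lower under si-circ235-2 (31.4%).

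**Figure D4:**
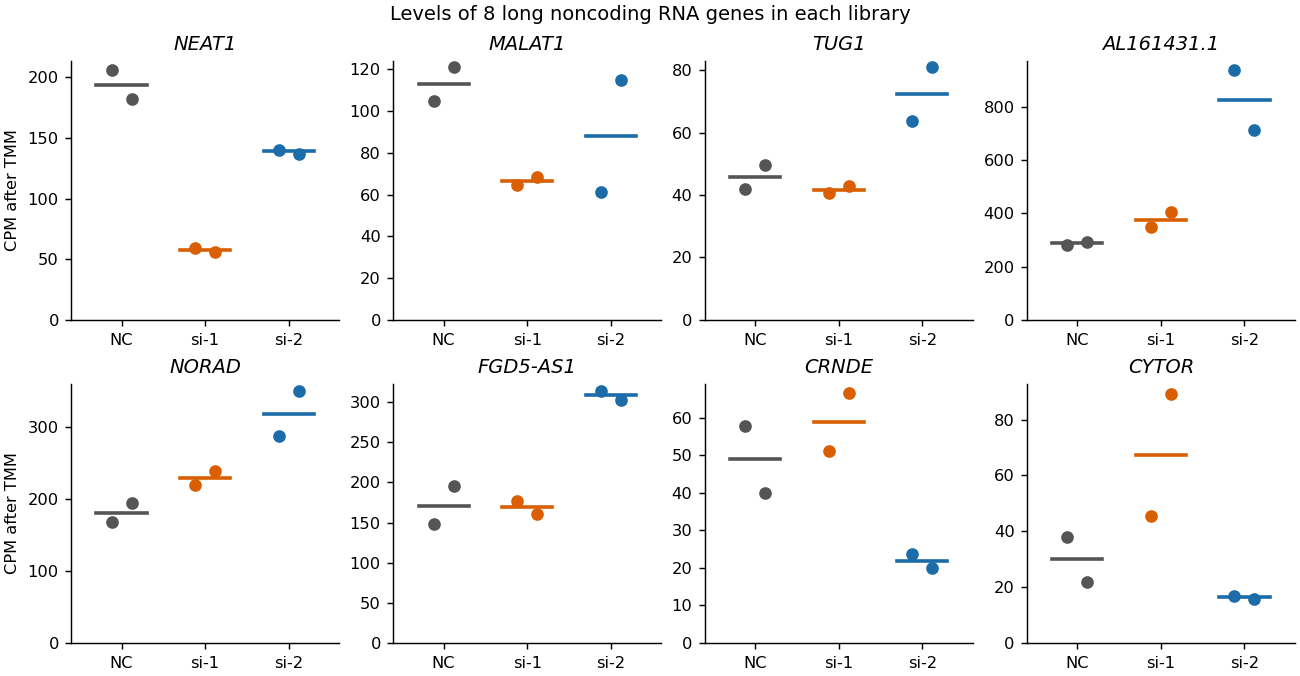
Level in each library (y axis, CPM after TMM scaling) of 8 long noncoding RNA genes in NC, si-circ235-1 (si-1) and si-circ235-2 (si-2), with 1 point per library and a bar at the mean of the 2 libraries. NEAT1 is lowest in si-1 (59.3 and 56.3 CPM), AL161431.1 highest in si-2 (938 and 711 CPM), and CYTOR is highest in si-1 and lowest in si-2.

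Genes of the proteins that build paraspeckles on NEAT1 were read from the same fit. Of 15 genes in a fixed list, 0 were called higher and 1 lower under si-circ235-1, or 6.67% called against 5.88% of all genes tested. Under si-circ235-2, 0 were called higher and 4 lower, or 26.7% called against 31.4% of all genes tested. The 4 became 1 without TMM scaling, when 8.98% of all genes tested were called lower, and 6 with the trend removed, when 14.7% were. DESeq2 called 1 higher and 3 lower under si-circ235-1. CPSF6, a cleavage factor subunit found in paraspeckles, fell by 0.91 in log2 units under si-circ235-1 (SE 0.17, adjusted p = 0.0181, edgeR). NONO and SFPQ, the core proteins of the body, were not called in any comparison, with log2 fold changes of -0.37 and -0.11 under si-circ235-1. The list had a median of -0.37 under si-circ235-1, against -0.03 over all genes tested. Its median of -0.16 under si-circ235-2 turned to 0.09 without TMM scaling, when that of all genes tested was 0.25.

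The most abundant of the 293 genes rose under si-circ235-2. AL161431.1, on the plus strand of chromosome 13 from 109269634 to 109278512, measured 281 and 293 CPM in NC, 349 and 403 in si-circ235-1, and 938 and 711 in si-circ235-2. All 3 conditions were apart, in that order. Against NC, si-circ235-2 gave a log2 fold change of 1.52 (SE 0.21, adjusted p = 0.00197, edgeR), or 2.87 times the NC level, and 1.14 (adjusted p = 0.0048, edgeR) after removal of the length and GC trend. The call held without each library in turn. Under si-circ235-1 the value was 0.39 (SE 0.21, adjusted p = 0.278, edgeR).

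NORAD, which sequesters RNA-binding proteins in the cytoplasm, is a minus-strand gene at 36045622 to 36050960 of chromosome 20. It measured 168 and 194 CPM in NC, 219 and 239 in si-circ235-1, and 287 and 350 in si-circ235-2, again without overlap between conditions. It rose by 0.81 in log2 units under si-circ235-2 (SE 0.19, adjusted p = 0.0102, edgeR) and by 0.39 (adjusted p = 0.0400, edgeR) with the trend removed. The call was lost when NC replicate 1 (0.71, adjusted p = 0.0984, edgeR) or si-circ235-2 replicate 2 (0.66, adjusted p = 0.0764, edgeR) was left out. Under si-circ235-1 the value was 0.34 (SE 0.19, adjusted p = 0.302, edgeR).

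FGD5-AS1 starts within 1000 bases of the start of the nuclear receptor gene NR2C2, which lies on the other strand. It measured 148 and 195 CPM in NC, 177 and 161 in si-circ235-1, and 314 and 303 in si-circ235-2. The si-circ235-2 libraries lay above the other 4, which overlapped. It rose by 0.85 under si-circ235-2 (SE 0.20, adjusted p = 0.00923, edgeR), by 0.53 with the trend removed, and the call was lost without NC replicate 1 (0.66). NR2C2 rose by 2.15 (adjusted p = 0.00267, edgeR) in the same comparison. DLGAP1-AS2, the antisense gene next in abundance, stayed between 144 and 200 CPM in all 6 libraries and was not called. EBLN3P was called higher in si-circ235-2 than in si-circ235-1, by 0.76 (SE 0.20, adjusted p = 0.0109, edgeR), a call lost without si-circ235-1 replicate 1 (0.66, adjusted p = 0.0722, edgeR).

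CRNDE and CYTOR, both studied as RNAs that favour growth in carcinomas, were lower in si-circ235-2 than in si-circ235-1. CRNDE measured 57.7 and 40.0 CPM in NC, 51.2 and 66.6 in si-circ235-1, and 23.7 and 19.9 in si-circ235-2. The si-circ235-2 libraries were below all others. It fell by 1.16 on the log2 scale against NC (SE 0.24, adjusted p = 0.0056, edgeR), by 0.88 (adjusted p = 0.0712, edgeR) without NC replicate 1. Under si-circ235-1 its value was 0.27 (SE 0.23, adjusted p = 0.51, edgeR). CYTOR measured 37.9 and 21.8 CPM in NC, 45.3 and 89.0 in si-circ235-1, and 16.9 and 15.9 in si-circ235-2, so that its conditions lay on opposite sides of NC. Neither comparison with NC passed the threshold (1.17, SE 0.33, adjusted p = 0.0606, and -0.86, SE 0.33, adjusted p = 0.0696, edgeR), and DESeq2 called both. With single libraries left out the first value ranged from 0.6, without si-circ235-1 replicate 2, to 1.62. The second ranged from -1.2 to -0.42, the latter without NC replicate 1. After removal of the length and GC trend the value under si-circ235-2 was -1.44 and was called (adjusted p = 0.0215, edgeR). Between the siRNAs CYTOR was lower in si-circ235-2 by a log2 fold change of -2.04 (SE 0.34, adjusted p = 0.00144, edgeR). CYTOR has a near-identical copy in MIR4435-2HG, so reads could be split between them.

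EPB41L4A-AS1 measured 37.7 and 26.2 CPM in NC, 19.1 and 24.2 in si-circ235-1, and 17.4 and 16.4 in si-circ235-2. It fell by 0.92 under si-circ235-2 (SE 0.25, adjusted p = 0.0178, edgeR). The call was lost without TMM scaling (-0.64, adjusted p = 0.0671, edgeR) and without NC replicate 1 (-0.63).

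Among 5 members from a list of bladder cancer and other carcinoma RNAs, 0 were called under si-circ235-1, while si-circ235-2 gave 2 higher and 2 lower, where 5.88% and 31.4% of all genes tested were called. LINC00958 rose by 0.75 on the log2 scale (SE 0.23, adjusted p = 0.0329, edgeR), from 14.1 and 10.7 CPM in NC to 20.7 and 20.8. LUCAT1 rose by 1.06 (SE 0.37, adjusted p = 0.0498, edgeR), from 2.76 and 2.93 CPM to 5.84 and 6.07, and was under 3 CPM in NC, so that it entered through the libraries where it is high. PVT1, which neighbours the MYC gene, fell by 0.69 (SE 0.21, adjusted p = 0.0312, edgeR), from 36.4 and 27.6 CPM to 20.4 and 19.4. FOXD2-AS1 fell by 0.76 (SE 0.26, adjusted p = 0.0466, edgeR), from 14.6 and 11.6 CPM to 8.32 and 7.12. In all 4 the si-circ235-2 libraries lay outside the range of NC. Each of these calls was lost without at least 4 of the 6 libraries left out singly, with log2 fold changes between 0.57 and 0.95 for LINC00958, 1.01 and 1.12 for LUCAT1, -0.72 and -0.48 for PVT1, and -0.91 and -0.59 for FOXD2-AS1 where they were lost. The trend-corrected values of 3 of these genes were not called by edgeR, at 0.82 for LUCAT1 (adjusted p = 0.128), -0.47 for PVT1 (adjusted p = 0.0557) and -0.41 for FOXD2-AS1 (adjusted p = 0.146). Without TMM scaling PVT1 stood at -0.42 (adjusted p = 0.164, edgeR) and FOXD2-AS1 at -0.50 (adjusted p = 0.18, edgeR), and neither was called. DESeq2 called neither LUCAT1 (adjusted p = 0.0807) nor FOXD2-AS1 (adjusted p = 0.0568), RLE factors ended the call of LUCAT1 (adjusted p = 0.0509, edgeR), and fits of 2 conditions alone ended those of FOXD2-AS1, PVT1 and LINC00958 (adjusted p = 0.0545, 0.0524 and 0.0515, edgeR). LINC00857 was not called.

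The 8 members that host microRNAs in their transcripts gave 0 calls under si-circ235-1, where 5.88% of all genes tested were called, and 1 with si-circ235-2, where 31.4% were. MIRLET7BHG, the host of let-7 family members, fell by 0.89 on the log2 scale (SE 0.28, adjusted p = 0.0343, edgeR), from 18.2 and 13.2 CPM in NC to 9.79 and 7.17. That call was lost without NC replicate 1 (-0.65), without si-circ235-2 replicate 2 (-0.68), without TMM scaling (-0.62) and with the trend removed (-0.75). Between the siRNAs, where 39.7% of all genes tested were called, 1 host gene was higher and 2 lower in si-circ235-2. MIR4435-2HG measured 71.2 and 110 CPM in si-circ235-1 and 44.1 and 37.8 in si-circ235-2 (log2 fold change -1.15, SE 0.25, adjusted p = 0.00508, edgeR). MIR222HG, the host of miR-221 and miR-222, measured 15.5 and 22.5 CPM in si-circ235-1 and 9.85 and 10.7 in si-circ235-2 (-0.89, SE 0.26, adjusted p = 0.0184, edgeR), which was -0.09 with the trend removed and -0.55 (adjusted p = 0.143, edgeR) without TMM scaling. MIR600HG was higher in si-circ235-2 by 1.51 (SE 0.32, adjusted p = 0.00447, edgeR). Without si-circ235-1 replicate 2 the first 2 calls were lost (-0.81 and -0.60).

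Against NC, MIR4435-2HG stood at 0.55 under si-circ235-1 (SE 0.25, adjusted p = 0.198, edgeR) and -0.60 under si-circ235-2 (SE 0.25, adjusted p = 0.0903, edgeR), where the trend-corrected value of -1 was called (adjusted p = 0.0254, edgeR), and MIR222HG at 0.81 under si-circ235-1 (SE 0.26, adjusted p = 0.0838, edgeR). Without si-circ235-1 replicate 2 the values under si-circ235-1 were 0.2 for MIR4435-2HG and 0.51 for MIR222HG. Under si-circ235-2 MIR4435-2HG stood at -0.33 without TMM scaling, and also without NC replicate 1.

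The stress and signalling lists overlap, since all 3 hold NEAT1 and 2 hold LUCAT1, and 5.88% and 31.4% of all genes tested were called under si-circ235-1 and si-circ235-2. The members were LINC-PINT, NEAT1 and LINC00467 for p53 and stress RNAs, NEAT1, MALAT1 and LUCAT1 for hypoxia RNAs, and MIR3142HG, NEAT1 and LUCAT1 for NF-kB and interferon RNAs. Under si-circ235-1 each list of 3 had 0 called higher and 1 lower, which was NEAT1. Under si-circ235-2 LUCAT1, whose call was lost under the settings given above, was the 1 called higher in the hypoxia and the NF-kB and interferon lists, and the p53 and stress list had no call.

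The largest falls under si-circ235-1 among called genes whose libraries did not overlap were in LINC01127, MAFG-DT, NEAT1, AC009113.1 and AC092747.4. LINC01127 measured 4.66 and 3.54 CPM in NC, 0.979 and 0.447 in si-circ235-1, and 5.49 and 3.54 in si-circ235-2, where it stayed within the NC range or above it. Its log2 fold change under si-circ235-1 was -2.55 (SE 0.46, adjusted p = 0.0156, edgeR). MAFG-DT, transcribed away from the transcription factor gene MAFG, measured 6.95 and 4.34 CPM in NC and 1.47 and 1.56 in si-circ235-1, a fall by 1.89 (SE 0.36, adjusted p = 0.0175, edgeR). LINC01127 and MAFG-DT were under 3 CPM in si-circ235-1 and reached the minimum through the other conditions, where they are higher. With 3 CPM required in every condition, the 21 lower calls became 9. AC009113.1 fell by 1.69 and AC092747.4 by 1.62 (adjusted p = 0.0227 and 0.0291, edgeR). Without NC replicate 1 the values of LINC01127, MAFG-DT, AC009113.1 and AC092747.4 were -2.34, -1.51, -1.82 and -1.34, and their adjusted p lay between 0.07 and 0.145 (edgeR). The 3 genes called higher under si-circ235-1 were AL355512.1, AL138828.1 and AC003092.1. All 3 were under 3 CPM in NC and reached the minimum through siRNA libraries, AL355512.1 through those of si-circ235-1 only. None of the 3 was left when 3 CPM was required in every condition. AL355512.1 measured 2.23 and 1.65 CPM in NC, 6.65 and 10.3 in si-circ235-1, and 0.885 and 1.29 in si-circ235-2, the lowest libraries. It rose by 2.13 (SE 0.36, adjusted p = 0.0132, edgeR), and the difference between the siRNAs was -2.94 (SE 0.38, adjusted p = 0.000644, edgeR).

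By the same rule the largest rises under si-circ235-2 were in AC022150.4, C1RL-AS1, AL138828.1, AC099850.3 and AL359834.1. AC022150.4, a sense intronic gene on chromosome 19, measured 1.05 and 1.96 CPM in NC, 3.5 and 5.25 in si-circ235-1, and 12.4 and 25.5 in si-circ235-2. All 3 conditions were apart, and the gene reached the 3 CPM minimum only through the siRNA libraries, where it is high. With si-circ235-2 it changed by 3.64 on the log2 scale (SE 0.44, adjusted p = 0.00179, edgeR), held without each library in turn, and 1.54 under si-circ235-1 (SE 0.44, adjusted p = 0.0653, edgeR), which passed the threshold in DESeq2 (adjusted p = 0.0171) and after removal of the trend (1.51, adjusted p = 0.0439, edgeR). C1RL-AS1 and AL359834.1 also reached the minimum through the si-circ235-2 libraries, where they are high. C1RL-AS1 rose by 2.04 and AL359834.1 by 1.77 (adjusted p = 0.00983 and 0.00539, edgeR), and both calls were lost without NC replicate 1 at values of 2.19 and 1.61 (adjusted p = 0.0747 and 0.0656, edgeR), that of AL359834.1 also without si-circ235-2 replicate 2 (adjusted p = 0.0515, edgeR). Among these rises, C1RL-AS1 shares 205 exon bases with C1RL, which stood at 0.26 (adjusted p = 0.618, edgeR). The largest falls were in AL390719.2, AL354836.1, PIK3CD-AS2, AC027307.2 and CH17-340M24.3, with log2 fold changes from -1.87 to -1.50. AL354836.1 shares 124 exon bases with ADRM1 on the opposite strand, where their reads cannot be separated. ADRM1, at a mean of 89.5 CPM against 10.2 for AL354836.1, stood at -0.72 (adjusted p = 0.0194, edgeR). AL390719.2 measured 12.3 and 7.82 CPM in NC, 8.04 and 9.10 in si-circ235-1, and 2.77 and 2.72 in si-circ235-2, the lowest libraries, and fell by 1.87 (SE 0.30, adjusted p = 0.0028, edgeR).

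The rule for named genes also takes those called in both comparisons with NC, which were 4, each in the same direction. PIK3CD-AS2, an antisense gene named after a lymphocyte kinase gene, measured 13.8 and 9.29 CPM in NC, 4.41 and 4.35 in si-circ235-1, and 4.13 and 3.39 in si-circ235-2. Its NC libraries stood above the other 4. The log2 fold changes were -1.40 (SE 0.29, adjusted p = 0.0252) and -1.62 (SE 0.29, adjusted p = 0.00382, edgeR). AC027307.2 was lower by -1.14 and -1.50 on the log2 scale (adjusted p = 0.0442 and 0.0046, edgeR). It shares 391 exon bases with APC2 on the opposite strand, whose reads cannot be separated there without strand. APC2 stood at -0.97 and 0.03 (adjusted p = 0.0418 and 0.934, edgeR). AC003092.1 measured 2.82 and 2.93 CPM in NC, 7.83 and 9.15 in si-circ235-1, and 6.08 and 7.93 in si-circ235-2, with both NC libraries lowest. It was higher by 1.56 and 1.28 (SE 0.29 in each, adjusted p = 0.0159 and 0.00822, edgeR), and AL138828.1 by 1.70 and 2.00 (adjusted p = 0.0338 and 0.00472, edgeR). In all 4 both calls were lost without NC replicate 1. There the log2 fold changes under si-circ235-1 and si-circ235-2 were -1.09 and -1.31 for PIK3CD-AS2 and -1 and -1.36 for AC027307.2. They were 1.53 and 1.25 for AC003092.1, and 1.26 and 1.56 for AL138828.1. Since both comparisons use the same NC libraries, their shared direction is not independent evidence.

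Between the siRNAs the largest differences by this rule were, higher in si-circ235-2, AC125807.2, AL359834.1, AC099850.3, AC005288.1 and LINC01127, and, lower, AL355512.1, AL445524.1, LINC01503, CYTOR and AC015912.3. AC125807.2 measured 1.84 and 5.62 CPM in NC, 1.75 and 0.112 in si-circ235-1, and 11.3 and 12.8 in si-circ235-2, a difference of 3.76 (SE 0.74, adjusted p = 0.00305, edgeR). Its si-circ235-1 replicate 2 was far below its other libraries, and it reached the 3 CPM minimum through the si-circ235-2 libraries, where it is high. AL445524.1, which starts 97 bases from the start of TSNAX on the other strand, measured 16.4 and 23.5 CPM in si-circ235-1 and 4.48 and 3.25 in si-circ235-2, a difference of -2.37 (SE 0.29, adjusted p = 0.000555, edgeR). LINC01503 differed by -2.20 (SE 0.34, adjusted p = 0.00109, edgeR). The calls of AC005288.1 and AC015912.3 were lost without si-circ235-1 replicate 2, where 2.82 became 2 and -1.86 became -1.12 (adjusted p = 0.0698 and 0.116, edgeR).

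Without strand, a read on shared bases cannot be assigned to 1 of 2 overlapping genes, and 110 of the 293 genes share exon bases with a coding gene, 97 of them with one on the opposite strand. The median shared length was 281 bases. The calls below stand against 5.88% of all genes tested under si-circ235-1 and 31.4% under si-circ235-2, for members and partners alike. Among the 92 pairs with both genes tested, 19 members were called under si-circ235-2, the partner being called in the same direction in 6 and in the opposite direction in 3. Under si-circ235-1, 6 members were called, with 2 partners in the same direction and 0 in the opposite. Pearson's r across the 92 pairs was 0.23 under si-circ235-1 and 0.10 under si-circ235-2, as a description, since the genes of a pair can share reads.

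AC099850.3 shares 97 bases with PRR11, a mitotic cell cycle gene. It measured 2.82 and 7.52 CPM in NC, 1.61 and 2.79 in si-circ235-1, and 18.2 and 19 in si-circ235-2, and the si-circ235-2 libraries were the highest. Its log2 fold changes were -1.22 (SE 0.44, adjusted p = 0.115, edgeR) and 1.84 (SE 0.40, adjusted p = 0.00756, edgeR), the latter lost without NC replicate 1 (1.30). Those of PRR11 were -1.70 (adjusted p = 0.00593, edgeR) and 1.32 (adjusted p = 0.00242, edgeR), so reads of this pair cannot be told apart by direction. The first value of AC099850.3 was -0.31 without NC replicate 2 and -1.76 without NC replicate 1. THAP9-AS1 and SEC31A, a vesicle coat gene with which it shares 681 exon bases on the same strand, went opposite ways under si-circ235-2, with -1.37 (adjusted p = 0.00523, edgeR) and 0.87 (adjusted p = 0.00822, edgeR). EPB41L4A-AS1 and EPB41L4A did so too, with -0.92 (adjusted p = 0.0178, edgeR) and 1.97 (adjusted p = 0.0033, edgeR). Among the 183 genes that share no exon base with a coding gene, 2 were called higher and 14 lower under si-circ235-1 (1.09% and 7.65%, against 2.24% and 3.64% of all genes tested), and 17 higher and 28 lower under si-circ235-2 (9.29% and 15.3%, against 15.7% and 15.7%).

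**Figure D5:**
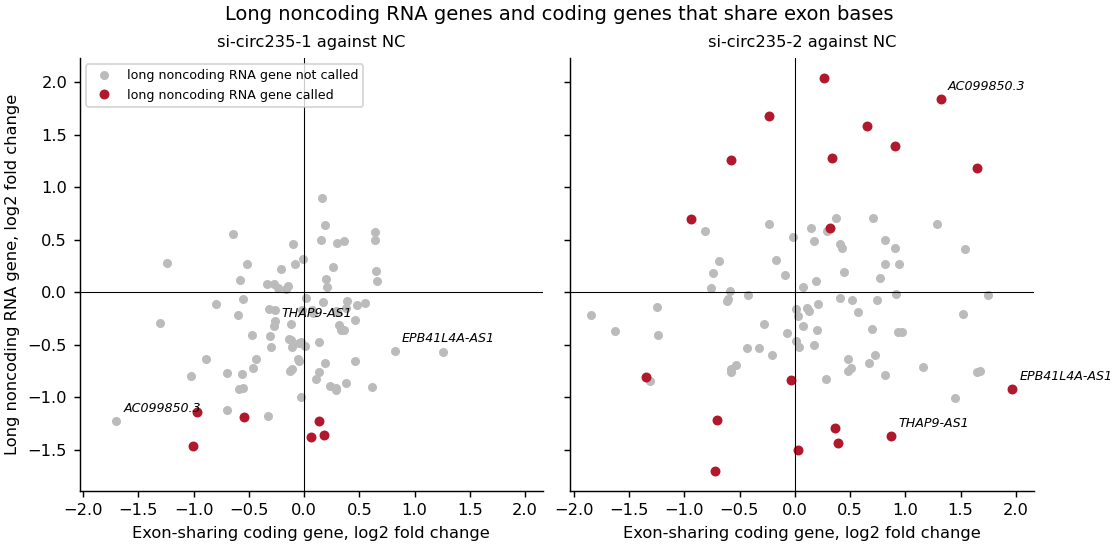
Log2 fold change of long noncoding RNA genes (y axis) against that of the coding gene sharing most exon bases (x axis) for the 92 pairs with both genes tested, under si-circ235-1 and si-circ235-2 against NC, with called long noncoding RNA genes in red. AC099850.3 lies with its partner below 0 on both axes under si-circ235-1 and above 0 under si-circ235-2, where EPB41L4A-AS1 and THAP9-AS1 lie below 0 and their partners above.

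A start within 1000 bases of a coding gene's start on the other strand was found for 103 of the genes. Of the 99 such pairs with both genes tested, 23 members were called under si-circ235-2, with 9 partners in the same direction and 2 in the opposite. Under si-circ235-1, 9 were called and none of their partners was called by edgeR, where 5.88% of all genes tested were called (31.4% under si-circ235-2). MAFG stood at 0.26 (adjusted p = 0.454, edgeR) where MAFG-DT fell. AL441992.1 fell under si-circ235-2 by 1.35 and its neighbour ZDHHC12 by 1.31 (adjusted p = 0.0084 and 0.00364, edgeR).

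Genes that shape noncoding RNA levels were read from the same fit, in which 5.88% of all genes tested were called under si-circ235-1 and 31.4% under si-circ235-2. Of 20 genes of the nuclear RNA exosome and its adaptors, which degrade many of these RNAs, 0 were called higher and 1 lower under si-circ235-1, and 1 higher and 6 lower under si-circ235-2. EXOSC4 and EXOSC5, subunits of the exosome ring, fell by 1.55 and 1.08 in log2 units under si-circ235-2 (adjusted p = 0.00324 and 0.00593, edgeR), and EXOSC10, a nuclear catalytic subunit, rose by 0.74 (adjusted p = 0.0379, edgeR) and was not called with the trend removed. The list's median was -0.35 under si-circ235-2 and -0.09 without TMM scaling, which left 3 lower calls. Of 17 nonsense-mediated decay factors, 0 were called under si-circ235-1, while si-circ235-2 gave 5 higher and 5 lower (6 and 3 without TMM scaling, 3 and 5 with the trend removed). SMG6 and SMG8 rose by 1.56 and 1.45 (adjusted p = 0.0126 and 0.0153, edgeR), while MAGOH and UPF3B fell by 1.26 and 1.36 (adjusted p = 0.003 and 0.00877, edgeR). Of 14 genes of 3' end formation, 0 were called under si-circ235-1, while si-circ235-2 gave 1 higher and 0 lower, which turned to 0 higher and 4 lower with the trend removed.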

How the data were processed

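For each of 6 libraries the authors deposited a raw read count per gene, neither normalized nor filtered by any stated rule. The submitters' processing notes name FastQC, cutadapt, STAR and hg38. For the counting tool and its gene annotation, nothing is given in the sources used here. Reads of overlapping genes can be assigned to either gene, since sequencing was without strand.

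Of the gene identifiers, 99.5% were found in GENCODE release 29 (GRCh38) after removal of version numbers, and types, coordinates and transcripts were taken from it. They were tested with edgeR 4.0.16 in R 4.3.3 (TMM factors after filterByExpr, 1 mean per condition, quasi-likelihood test, Benjamini-Hochberg adjustment over 14415 genes, threshold 0.05). Alternatives were no TMM factors, RLE factors, DESeq2 1.42.0, no count filter, the replicate number as a block, separate fits for each pair of conditions, splines with 5 degrees of freedom over transcript length and GC content removed from each library, each library left out, and other rules for members and seed matches. The fits were tested on simulated data with known changes, where most of the smaller changes were missed and the share of false calls was above the nominal threshold in every comparison, so calls near the threshold are the least firm. Totals of 15373992 to 19912893 counts per library were deep enough that 2 libraries per condition limit the precision more than counting error at most of the levels given.

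Named genes were members of role lists and the 10 most abundant members. Others were the 5 largest rises and falls per comparison among called members whose libraries did not overlap. Members called in both comparisons with NC, and some coding partners of the named genes, were added. AL441992.1, ZDHHC12, THAP9-AS1, SEC31A and NR2C2 were chosen from the pairs after their values were seen. The members and lists were chosen with earlier results of these data known. Some genes of the fixed lists are not reported here.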

Additional observations from a re-analysis of the deposited data

How the results depend on the processing

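Of 61 calls of named genes, 54 were kept without TMM factors, 58 in DESeq2, 60 with RLE factors, 61 without the count filter, 58 with 2 conditions alone and 53 after removal of the length and GC trend, and 0 changed sign in these or with a library left out. Left out singly, NC replicate 1 lost 29 of them, NC replicate 2 lost 8, si-circ235-1 replicates 1 and 2 lost 12 and 20, and si-circ235-2 replicates 1 and 2 lost 5 and 11. MALAT1, not called under si-circ235-2, moved from -0.36 to 0.02 without si-circ235-2 replicate 1 and to -0.89, which was called, without si-circ235-2 replicate 2. The causes were not tested except where fewer genes or libraries entered.

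Over all genes tested, the share called higher under si-circ235-1 also went from 2.24% to 5.14% with 2 conditions alone and 8.25% with the trend removed. Under si-circ235-1 the 3 genes called higher became 6 in DESeq2, 7 without the count filter, 8 with 2 conditions alone, 10 with the trend removed, 7 at a minimum of 1 CPM, 0 at 10 CPM, and 0 where every condition had to reach 3 CPM. The 21 lower became 39 without the count filter, 32 at 1 CPM, 5 at 10 CPM and 9 with 3 CPM in every condition. The median of -0.26 was -0.11 at 10 CPM and -0.17 with 3 CPM in every condition. With single libraries left out these ranged from 0 to 8, 0 to 33 and -0.32 to -0.18.

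Under si-circ235-2 the 30 higher became 55 at 1 CPM, 9 at 10 CPM, 11 with 3 CPM in every condition and 17 without exon overlap, and the 38 lower became 15 without TMM factors, 63 at 1 CPM and 17 at 10 CPM. As shares, 9.29% of the 183 genes without exon overlap were called higher and 15.3% lower, against 10.2% and 13% of the 293. The median of -0.16 was 0.09 without TMM factors and -0.32 with 3 CPM in every condition. With single libraries left out these ranged from 4 to 27, 2 to 39 and -0.25 to -0.13.

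Between the siRNAs the 61 higher became 105 without TMM factors, 125 at 1 CPM, 13 at 10 CPM, 25 with 3 CPM in every condition and 37 without exon overlap, and the 46 lower became 27 without TMM factors, 86 at 1 CPM and 15 at 10 CPM. As shares, 20.2% of the 183 genes without exon overlap were called higher and 17.5% lower, against 20.8% and 15.7% of the 293. The median of 0.13 was 0.45 without TMM factors, 0 at 10 CPM, -0.08 with 3 CPM in every condition and 0.04 without exon overlap. With single libraries left out these ranged from 40 to 60, 19 to 49 and 0.02 to 0.23. The differences between medians with and without a seed match, 0.08 under si-circ235-1 and 0.27 between the siRNAs, were 0.17 and 0.17 for bases 2 to 7. For matches in the longest transcript only, the medians with and without one were -0.23 and -0.26 under si-circ235-1. Between the siRNAs they were 0.26 and 0.04.

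With the replicate number as a block, 4 genes were called higher and 17 lower under si-circ235-1. The counts were 27 and 40 under si-circ235-2, and 65 and 48 between the siRNAs. In the same order, 2.56% and 3.94%, 16% and 16.9%, and 21.8% and 20.1% of all genes tested were called with the block. The block lost 2 named calls, AC027307.2 under si-circ235-1 (-1.16, adjusted p = 0.0535, edgeR) and LUCAT1 under si-circ235-2 (1.07, adjusted p = 0.0521, edgeR), and gained 2, NEAT1 under si-circ235-2 (-0.49, adjusted p = 0.0363, edgeR) and AC022150.4 under si-circ235-1 (1.56, adjusted p = 0.0276, edgeR). Deviations of same-numbered libraries correlated at -0.09, 0.15 and 0.14 between the pairs of conditions. With 1 difference per condition these values cannot show whether same-numbered libraries were handled together, and the labels do not say. Genes near 3 CPM rest on about 46 to 60 counts a library, and 2 libraries a condition limit the precision of each value.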

Other observations

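H19, an imprinted growth-restricting RNA typed as a processed transcript in the annotation used and therefore outside the 293 genes, fell under both siRNAs. It measured 34.6 and 27.7 CPM in NC, 10.1 and 6.25 in si-circ235-1, and 6.08 and 4.54 in si-circ235-2, with log2 fold changes of -1.93 (standard error 0.29, adjusted p = 0.0104, edgeR) and -2.56 (standard error 0.30, adjusted p = 0.00179, edgeR). Both comparisons share the NC libraries. OIP5-AS1, of the same type, measured 50 and 54 CPM in NC, 60 and 68.8 in si-circ235-1, and 77.2 and 82.3 in si-circ235-2, where it rose by 0.62 (standard error 0.18, adjusted p = 0.0244, edgeR). MIR17HG, the host of the miR-17 to miR-92 cluster and also of that type, measured 4.27 and 5.75 CPM in si-circ235-1 and 1.24 and 1.91 in si-circ235-2, a difference of -1.66 (standard error 0.36, adjusted p = 0.00501, edgeR). These genes were chosen after their values were seen.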
